A study of Rattus norvegicus with 8 samples.

Results

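The perichondral zone, the rim of cartilage that borders the sheath of the growth plate, was set against the hypertrophic zone, where chondrocytes have stopped dividing and swell before bone replaces them. The arrays were chosen by their titles: 2 perichondral arrays and 2 hypertrophic arrays, 4 of the 8 arrays in the series. In each zone one array carried RNA of 42-day-old rats and the other RNA of 46-day-old rats, and each array held RNA pooled from 3 rats. The tissue was the femur growth plate of untreated rats as far as the labels say. Their strain and sex, how the zones were separated, and whether the same rats gave both zones are not given in the sources used here. RNA was extracted with RNeasy columns, amplified with the Ovation kit and labelled with biotin. The other 4 arrays, 2 of the reserve zone and 2 of the proliferative zone at the same ages, only added to the estimate of the spread. No label says that the pools were independent beyond the change of age, so each p-value reflects variation among pools in which age varies too, and that variation may be technical.

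In a growth plate, chondrocytes pass from a resting pool through columns of dividing cells to hypertrophy, and each stage lays down its own matrix. Resting and dividing chondrocytes secrete collagens II, IX and XI, aggrecan and small proteoglycans, whereas hypertrophic chondrocytes are known for collagen X, collagenase and the enzymes of mineralisation. The perichondrium is a fibrous layer that holds progenitors of cartilage and bone and secretes signals that set the pace of the plate.

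Signal was analysed as log2(intensity + 16) after quantile normalization, and each difference below is the perichondral mean minus the hypertrophic mean on that scale. The normalized median of all probe sets was 8.25. The 0.95 quantile of 43 genes typical of other organs, such as liver or brain, was 9.70, and it serves as a yardstick of background called the other-organ level. The Affymetrix control probe sets for Gapdh gave ratios of the 3′ to the 5′ end of 4.47 and 3.78 on the perichondral arrays and 4.30 and 3.63 on the hypertrophic arrays, at 42 and 46 days in each pair. For beta-actin the same ratio was 1.64 and 0.557 on the perichondral arrays and 1.72 and 4.59 on the hypertrophic arrays. This ratio, a sign of RNA quality, differed most between the 46-day arrays, and its part in the results was not tested. Over the 6209 brightest probe sets the correlation, across probe sets that share both libraries, was 0.755 between the perichondral arrays and 0.531 between the hypertrophic arrays. Between arrays of different zones it was 0.432 to 0.657, so the hypertrophic arrays were no more alike than some arrays of different zones.

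The 42-day hypertrophic array stood apart from the 46-day one in genes of bone and marrow. Col1a1, the collagen of bone and fibrous tissue, was 16.09 on the 42-day and 11.33 on the 46-day hypertrophic array. Ibsp, a sialoprotein of mineralising matrix, was 15.66 and 12.47, and Dmp1, a matrix protein of osteocytes, was 13.58 and 9.98. Hemgn, a nuclear protein of blood cell precursors, was 12.89 and 10.39, and the macrophage gene Cd68 was 9.64 and 5.03. Col10a1, which defines hypertrophic chondrocytes, was well above the other-organ level on all 4 arrays, at 13.66 and 13.78 on the perichondral arrays, against 16.93 and 15.26 on the hypertrophic arrays. Some gene lists are therefore given against each hypertrophic array as well as against both. The others are given against both only, so the part of the 42-day array in them is not shown.

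Only higher signals in the perichondral zone passed the test. Of 31042 probe sets, 9 rose in perichondral arrays (0.0290%) and none fell (0%) at a limma adjusted p below 0.05, with all 9 higher on both perichondral arrays than on both hypertrophic arrays. Without adjustment, 1160 probe sets were higher (3.74%) and 756 lower (2.44%) at p below 0.05. The calls rest on few arrays. Neither perichondral array could be left out without losing them all, and a fit that did not let the variance follow the signal level also called none, with 1027 higher and 901 lower at an unadjusted p below 0.05. Without the 42-day hypertrophic array 50 probe sets were called higher, without the 46-day one 6 higher and 1 lower (an unnamed probe set), and without the 42-day reserve array 5 higher. With age as a replicate block, 52 probe sets were higher (0.168%) and 3 lower (0.00966%), and the 52 held all 9. Of all probe sets, 1848 were higher (5.95%) and 1738 lower (5.60%) with no overlap between the zones and at least 1 log2 unit at each age. For one gene alone, 2 arrays against 2 cannot reach an exact permutation p below 0.333.

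The 7 named genes among the 9 were Nnt, Ucma, Omd, Pdzrn3, Arxes1, Fkbp9 and Ogn, and their differences ran from 4.50 to 6.21 log2 units. On the log2(intensity + 16) scale these are 22.7- to 74.0-fold. As ratios of mean deposited intensity the same genes gave 26.3- to 123.3-fold, so the size of the fold depends on the scale. All 9 probe sets had their lowest zone mean in the hypertrophic zone, and 7 had their highest in the perichondral zone. They were picked by the difference between these zones, which largely fixes such ranks. None of the 9 had a hypertrophic mean above the other-organ level, which 2380 of all 14217 genes exceeded in that zone. Not all were at background there: the hypertrophic mean was 9.27 for Ucma and 8.41 for Ogn, above the normalized median of 8.25. In bulk tissue, fewer cells of a type and less RNA per cell cannot be told apart.

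Nnt encodes the mitochondrial transhydrogenase that makes NADPH. Its signal was 11.72 and 11.26 on the perichondral arrays, against 5.21 and 5.35 on the hypertrophic arrays. The hypertrophic arrays lay close together and far below the others. The difference was 6.21 ± 0.74 (SE, n = 2 arrays per zone, limma adjusted p = 0.00379). Reserve arrays averaged 11.23 and proliferative arrays 8.53, so the hypertrophic zone had the lowest mean of the 4 zones.

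Ucma, a Gla-rich protein that chondrocytes secrete into the matrix, was the brightest of the 7. It reached 15.80 and 14.99 on the perichondral arrays, against 9.16 and 9.39 on the hypertrophic arrays. In the deposited intensities this was 74497 and 31252 units, against 547 and 693 units. The arrays of each zone were close and the zones did not overlap. The difference was 6.12 ± 0.70 (SE, limma adjusted p = 0.00379), and the reserve zone at 14.94 lay near the perichondral arrays.

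Pdzrn3, a ubiquitin ligase with PDZ domains, was 12.89 and 10.76 on perichondral arrays, against 6.24 and 5.55 on hypertrophic arrays (limma adjusted p = 0.0102). Arxes1, a gene of fat cell differentiation in mouse, was 11.94 and 10.83, against 6.61 and 6.05 (limma adjusted p = 0.0218). Fkbp9, a prolyl isomerase of the endoplasmic reticulum (ER), was 11.65 and 10.11, against 5.54 and 6.32 (limma adjusted p = 0.0326). In these 3 genes the 42-day perichondral array was the higher of the pair, and both hypertrophic arrays were near background. Their differences were 5.93 for Pdzrn3, 5.05 for Arxes1 and 4.95 for Fkbp9.

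**Figure D1:**
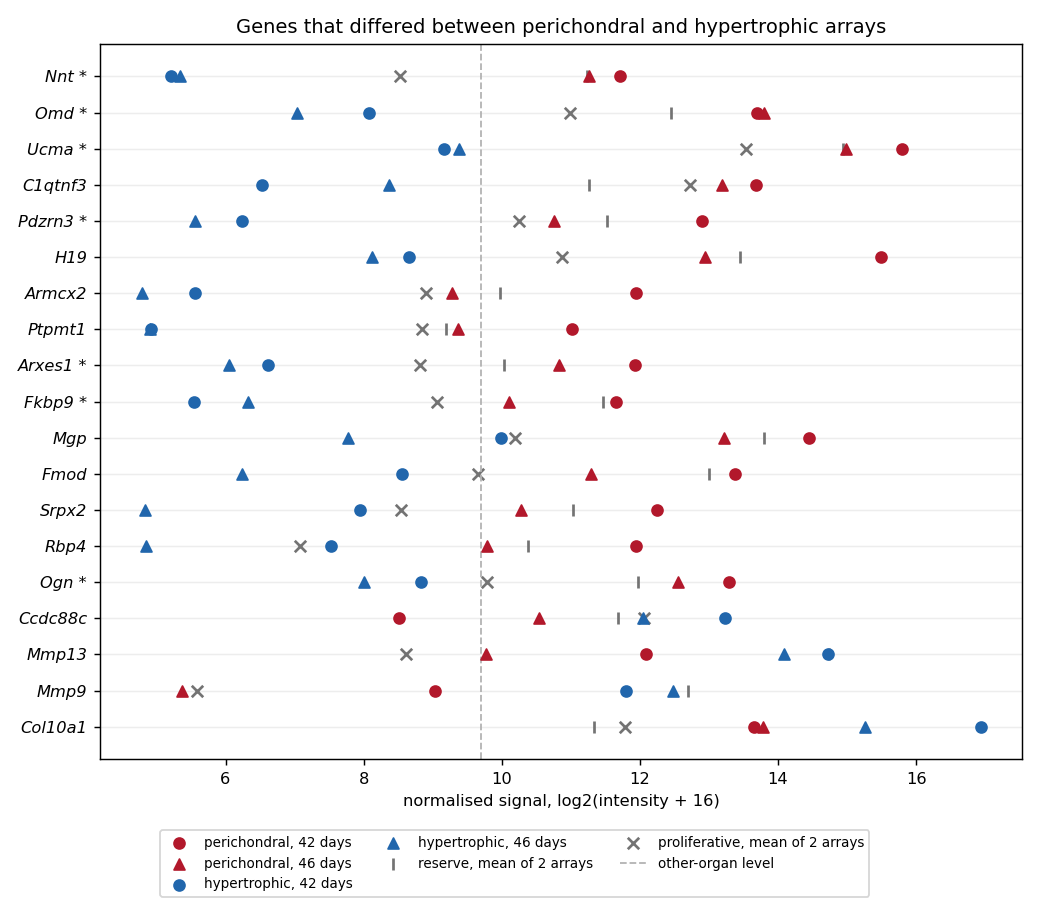
Normalised signal (horizontal axis, log2 of intensity + 16) of 19 genes on each perichondral array (red) and each hypertrophic array (blue), with circles at 42 days and triangles at 46 days, and the reserve and proliferative means in grey. Asterisks mark the 7 genes past the threshold without an age term. In all genes shown the 2 zones do not overlap, and Ccdc88c, Mmp13, Mmp9 and Col10a1 are the ones with hypertrophic arrays on the right.

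Small leucine-rich proteoglycans, which bind collagen fibrils and space them, had the largest median difference of the 28 lists. Of 12 measured members, 8 were higher on both perichondral arrays than on both hypertrophic arrays and none was lower, where 18.3% of all 14217 genes were higher and 17.6% lower in that way. The median difference was 3.54, against 0.02 over all genes. Past the threshold were Omd and Ogn (genes higher by the same test, 0.0492%), and with age as a block also Fmod, Chad and Bgn (0.281% of genes higher). Against single hypertrophic arrays the counts were close: 9 of 12 were above the 42-day array (34.2% of all genes were) and 10 of 12 above the 46-day array (36.9% of all genes) on both perichondral arrays.

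Omd, osteomodulin, which carries keratan sulfate and is best known from bone, was 13.69 and 13.79 on the perichondral arrays, against 8.08 and 7.04 on the hypertrophic arrays. The difference was 6.18 ± 0.91 (SE, limma adjusted p = 0.0218). Ogn, osteoglycin, was 13.29 and 12.54 on perichondral arrays, against 8.83 and 8.0 on hypertrophic arrays. Its difference was 4.50 ± 0.74 (SE, limma adjusted p = 0.0484), and its other 3 probe sets gave 3.31, 2.96 and 0.59. Both genes had their highest zone mean at the rim, and they are neighbours: Ogn, Omd and Aspn follow one another on rat chromosome 17, with Ecm2 a little further on. Aspn, asporin, was 10.21 and 9.58 on perichondral arrays, against 8.79 and 7.74 on hypertrophic arrays, a difference of 1.63 that did not pass. Ecm2 was 10.84 and 9.62, against 4.78 and 8.48, also without overlap and not past the threshold.

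Fmod, fibromodulin, which guides collagen fibril assembly, was 13.38 and 11.28 on perichondral arrays, against 8.55 and 6.24 on hypertrophic arrays. The 46-day array was the lower one in both zones, so the age block moved its adjusted p in limma to 0.000103, against 0.126 without it. Chad, chondroadherin, which anchors chondrocytes through integrins, was 11.24 and 9.94, against 6.11 and 5.85. Bgn, biglycan, was 11.95 and 10.25, against 6.45 and 7.56. Lum, lumican, did not separate the zones: it was 13.41 and 13.19 on perichondral arrays, against 13.70 on the 42-day and 7.12 on the 46-day hypertrophic array. Dcn, decorin, overlapped as well, with a difference of 0.89.

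Upstream sequences are shown for Ucma and the proteoglycans Omd, Ogn and Fmod. Each is the 250 bases before the annotated start, 5′ to 3′ along the gene's strand, from RefSeq (GRCr8), and entries exist for all 4. These are not simply the largest differences. Mgp, at 4.95, had no entry at hand, and Chad, at 4.61, is not shown. Capitals mark matches, on either strand, to 4 short motifs. The TATA box was searched as TATAAA, and 12.9% of 33469 promoter windows of this length hold it. The core of the RUNX motif was searched as TGTGGT and is held by 14.5% of the windows. For the AP-1 motif the letters were TGANTCA, with 6.34% of windows holding a match. For the core of the SOX motif they were ACAAT, with 30% of windows. A match describes the letters and is no evidence of binding. Ucma held 1 RUNX core and 1 AP-1 motif, Omd held 1 SOX core, and Ogn held 1 RUNX core and 2 TATA box matches that overlap on opposite strands. Fmod held none of the 4 in this window.
Ucma (chr17:78212997-78213246, minus strand): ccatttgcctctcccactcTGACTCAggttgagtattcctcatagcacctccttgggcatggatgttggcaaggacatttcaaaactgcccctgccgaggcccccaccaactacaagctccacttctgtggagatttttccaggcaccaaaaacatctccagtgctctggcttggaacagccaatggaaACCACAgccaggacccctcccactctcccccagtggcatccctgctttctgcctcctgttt
Omd (chr17:15274871-15275120, minus strand): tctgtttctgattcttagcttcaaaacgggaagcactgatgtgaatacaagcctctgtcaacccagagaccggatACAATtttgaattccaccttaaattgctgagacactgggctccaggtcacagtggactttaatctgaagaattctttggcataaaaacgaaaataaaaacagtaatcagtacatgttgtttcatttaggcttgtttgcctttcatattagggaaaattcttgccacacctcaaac
Ogn (chr17:15258996-15259245, minus strand): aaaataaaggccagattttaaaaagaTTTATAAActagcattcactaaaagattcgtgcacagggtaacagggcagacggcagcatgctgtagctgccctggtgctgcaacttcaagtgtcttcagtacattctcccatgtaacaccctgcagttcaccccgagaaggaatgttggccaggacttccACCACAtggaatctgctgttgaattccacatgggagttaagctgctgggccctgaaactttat
Fmod (chr13:48045317-48045566, plus strand): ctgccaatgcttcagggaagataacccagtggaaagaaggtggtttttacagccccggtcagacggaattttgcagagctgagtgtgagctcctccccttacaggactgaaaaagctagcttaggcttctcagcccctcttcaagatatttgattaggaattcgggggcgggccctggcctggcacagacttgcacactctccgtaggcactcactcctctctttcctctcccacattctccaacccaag

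Non-collagenous cartilage proteins were mostly higher in perichondral than in hypertrophic arrays. The list's median signal was 11.1 and 10.38 on perichondral arrays, against 9.34 and 9.22 on hypertrophic arrays. It was 10.51 for the reserve and 10.43 for the proliferative zone means. Of 18 measured members, 11 were higher without overlap (18.3% of all genes) and none was lower (17.6%). At an unadjusted limma p below 0.05, 8 were higher (4.53% of all genes), and the median difference was 1.5. Ucma was the only one past the threshold (0.0492% of all genes higher), with Mgp, Chad and Matn2 added by the age block (0.281%). Mgp, matrix Gla protein, which inhibits calcification, was 14.44 and 13.22 on perichondral arrays, against 9.99 and 7.77 on hypertrophic arrays (limma adjusted p = 0.293, and 0.00053 with age as a block). Matn2, a matrilin of loose matrix, was 12.78 and 11.30, against 10.01 and 8.19. Scrg1 was 11.57 and 11.31, against 8.89 and 9.46, a difference of 2.27 that did not pass. The core of the aggregate differed little: aggrecan (Acan) was 12.73 and 12.08, against 12.19 and 10.66, with overlap. Hapln1, its link protein, was 16.13 and 16.06, against 15.21 and 14.55. Comp, which bridges collagen fibrils, overlapped between zones with a difference of 0.47.

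Cartilage collagens showed smaller differences in the same direction. All 12 measured members had a higher mean in perichondral arrays (50.8% of all genes did), 7 without overlap (18.3% of all genes), and the median was 0.99. Col2a1, the main collagen of cartilage, was 17.80 and 17.58 on perichondral arrays, against 17.13 and 15.86 on hypertrophic arrays. These are the highest signals of the set, and the difference of 1.20 ± 1.25 (SE) did not pass. Col9a1, a chain of the collagen that coats collagen II fibrils, was 15.43 and 13.85, against 12.84 and 10.02. Its difference of 3.21 was past the threshold only with age as a block (limma adjusted p = 0.0123). Col16a1, a related fibril-coating collagen, was 11.44 and 10.55, against 7.79 and 8.20, and did not pass in either fit. The list leaned on the 46-day hypertrophic array: 11 of 12 were above it on both perichondral arrays (36.9% of all genes), against 8 of 12 above the 42-day array (34.2% of all genes).

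Genes of fibrous tissue gave a mixed picture. Of 35 measured members, 14 were higher without overlap (18.3% of all genes) and 3 lower (17.6%). At an unadjusted limma p below 0.05, 9 were higher (4.53% of all genes), and the median difference was 0.70. Postn, periostin, a matrix protein of periosteum and perichondrium, was 11.48 and 10.12 on perichondral arrays, against 7.31 and 7.08 on hypertrophic arrays. It was 7.07 in the reserve and 7.36 in the proliferative zone on average, so both perichondral arrays stood alone, but its limma adjusted p was 0.670. Tgfbi, a related adhesion protein, was 12.88 and 10.72, against 9.23 and 8.12, and Pdgfra, a receptor of mesenchymal progenitors, was 13.53 and 13.76, against 11.21 and 11.23. These 2 were past the threshold with age as a block only (limma adjusted p = 0.0236 and 0.0328), where 0.281% of all genes were higher. Col1a1 overlapped between the zones, at 15.41 and 13.03 on perichondral arrays, against 16.09 and 11.33 on hypertrophic arrays. Col3a1, of loose fibrous tissue, was 12.08 and 11.24, against 10.28 and 10.55, without overlap and not past the threshold. Of 6 measured tendon and ligament genes, 2 were higher without overlap (Fmod and Col14a1) and 1 lower, to be read against the same shares. By the sign of the difference 2 were higher and 4 lower, and the list's median was -0.23. The tendon markers Tnmd and Scx were below the other-organ level on all 4 arrays.

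Several further genes were past the threshold with age as a block and not without it on all 8 arrays. Of these, C1qtnf3 and H19 also passed without the block in 2 of the fits that left out 1 array, and Ptpmt1, Srpx2 and Fmod in 1. In a fit to the 4 perichondral and hypertrophic arrays alone, C1qtnf3, H19 and Mgp passed as well. C1qtnf3, a secreted relative of complement C1q found in cartilage, was 13.69 and 13.19 on perichondral arrays, against 6.52 and 8.37 on hypertrophic arrays. Its difference of 5.99 had a limma adjusted p of 0.205 without age and 0.0212 with it. H19, an imprinted noncoding RNA of growing tissue, was 15.49 and 12.94, against 8.66 and 8.11, a difference of 5.83 (limma adjusted p = 0.126 and 0.000844). Armcx2 was 11.95 and 9.28, against 5.56 and 4.79, and Ptpmt1, a mitochondrial phosphatase of cardiolipin synthesis, was 11.01 and 9.37, against 4.92 and 4.90. Both had hypertrophic arrays near the bottom of the scale. Srpx2, a secreted protein with sushi repeats, was 12.25 and 10.28, against 7.94 and 4.83, and Rbp4, the carrier of retinol, was 11.94 and 9.78, against 7.53 and 4.85. For Mtf1, a metal-sensing transcription factor, 1 probe set gave a difference of 4.71, but the brightest of its 3 gave 0.56, so its direction is uncertain.

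Of the 52 probe sets called higher with age as a block, the hypertrophic zone had the lowest of the 4 zone means in 49 and the perichondral zone the highest in 41. The 52 were picked by the difference between these zones, which largely fixes such ranks. In 12 of the 52 the hypertrophic mean was above the other-organ level, so those were measured on both sides. They included Twsg1, a secreted BMP-binding protein, at 15.17 and 14.26 on perichondral arrays, against 12.36 and 10.91 on hypertrophic arrays, and the receptor Pdgfra given above. A second Twsg1 probe set gave -0.40. Differences over the 52 ran from 2.42 to 6.21.

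**Figure D2:**
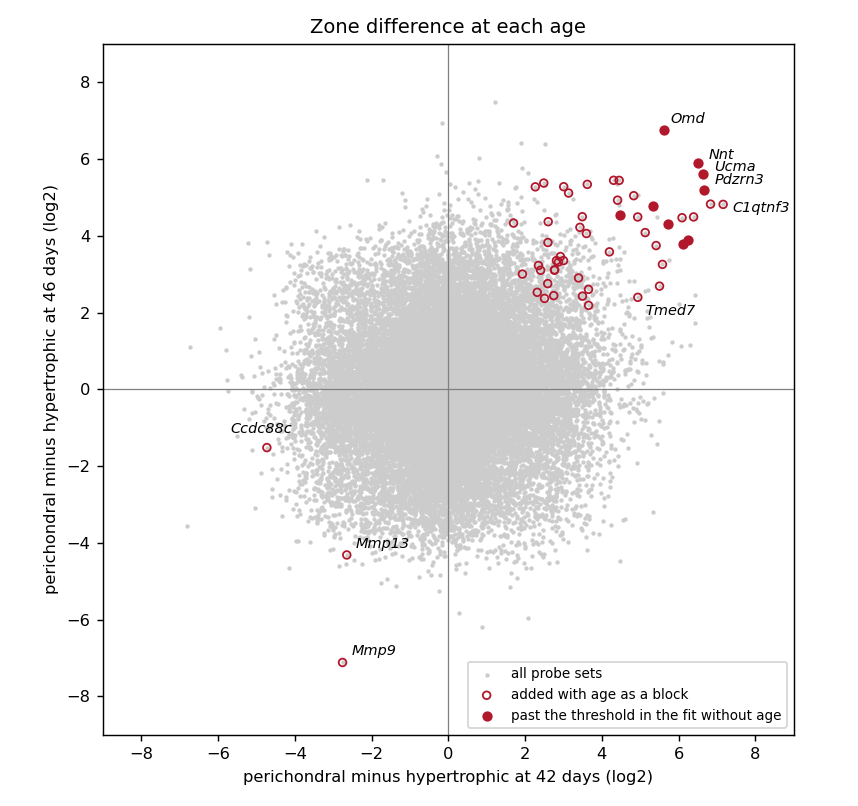
Perichondral minus hypertrophic signal (log2) at 42 days on the horizontal axis and at 46 days on the vertical axis, 1 point for each of 31042 probe sets. Filled red points are the 9 probe sets past the threshold without an age term and open red circles those added with age as a block. Omd, Nnt, Ucma and Pdzrn3 lie at the upper right, Mmp9, Mmp13 and Ccdc88c at the lower left, and the grey cloud is round.

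The difference at 42 days predicted little of the difference at 46 days over the whole array. Each difference comes from 1 array per zone, and the 2 had the same sign in 52.7% of all probe sets and in 55.7% of the brightest. The correlation across probe sets was 0.0737 for all and 0.24 for the brightest. A difference of at least 2 log2 units in the same direction at both ages was found in 505 probe sets higher and 405 lower, and in 679 the differences were that large and opposite. At 3 log2 units or more the balance was 94 higher, 42 lower and 82 opposite.

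Genes of hypertrophy and mineralisation leaned the other way, but the list as a whole did so only against 1 array. Of 28 measured members, 7 were lower on both perichondral arrays than on both hypertrophic arrays (17.6% of all genes) and 2 higher (18.3%). At an unadjusted limma p below 0.05, 4 were lower (2.32% of all genes), and the median difference was -0.58. It was -0.86 at 42 days and -0.02 at 46 days. On both perichondral arrays, 19 of 28 were below the 42-day hypertrophic array (67.9%, against 36.4% of all genes). Against the 46-day array 9 were below (32.1%, and 34.6% of all genes) and 8 above (28.6%, and 36.9% of all genes), which is near the share over all genes.

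Col10a1, collagen X, was 13.66 and 13.78 on the perichondral arrays, against 16.93 and 15.26 on the hypertrophic arrays. The perichondral arrays were alike and below both hypertrophic arrays, though far above the other-organ level. The difference was -2.38 ± 0.72 (SE, limma adjusted p = 0.643, and 0.0823 with age as a block), and the reserve and proliferative means were 11.33 and 11.78. Mmp13, the collagenase of terminal chondrocytes and osteoblasts, was 12.08 and 9.77 on perichondral arrays, against 14.73 and 14.09 on hypertrophic arrays. Its difference was -3.48 ± 0.66 (SE), with a limma adjusted p of 0.126 and, with age as a block, 0.00995. The reserve mean of 14.74 was at the hypertrophic level, and the proliferative mean was 8.61.

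Mmp9, the gelatinase of osteoclasts and of the chondro-osseous border, was 9.04 and 5.36 on perichondral arrays, against 11.79 and 12.48 on hypertrophic arrays. The difference of -4.94 ± 0.93 (SE) was past the threshold with age as a block only (limma adjusted p = 0.0178, and 0.126 without). A second, dimmer Mmp9 probe set gave -1.69 with overlap. The reserve mean was 12.70. Ccdc88c, a dishevelled-binding regulator of Wnt signalling, was 8.51 and 10.53, against 13.24 and 12.05, with a limma adjusted p of 0.0384 with age as a block and 0.245 without. These 3 were all the genes lower with age as a block (0.0211%).

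Upstream sequences of the main hypertrophic genes, Mmp13 and Col10a1, are given with the same marks. Mmp13 held a TATA box 47 bases, an AP-1 motif 66 bases and a RUNX core 149 bases before the start, each counted to the first base of the match. Col10a1 held a TATA box at 31 bases and none of the other 3 motifs in this window.
Mmp13 (chr8:12782579-12782828, plus strand): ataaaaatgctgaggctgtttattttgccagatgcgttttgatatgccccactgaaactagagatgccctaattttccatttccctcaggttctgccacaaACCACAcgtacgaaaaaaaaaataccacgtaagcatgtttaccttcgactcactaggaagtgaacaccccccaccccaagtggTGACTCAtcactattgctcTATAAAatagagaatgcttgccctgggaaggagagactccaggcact
Col10a1 (chr20:39737286-39737535, plus strand): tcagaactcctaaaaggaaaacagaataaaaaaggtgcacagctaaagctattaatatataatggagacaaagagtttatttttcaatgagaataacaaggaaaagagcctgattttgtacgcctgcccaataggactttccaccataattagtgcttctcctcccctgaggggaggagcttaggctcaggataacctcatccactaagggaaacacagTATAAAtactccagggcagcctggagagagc

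Other hypertrophic genes were less distinct. Panx3, a channel of prehypertrophic chondrocytes and osteoblasts, was 9.15 and 8.51 on perichondral arrays, against 11.02 and 9.53 on hypertrophic arrays, and did not pass. Alpl, the phosphatase of mineralisation, was 9.11 and 8.63, against 9.39 and 9.65, all below the other-organ level. Ibsp was 12.60 and 13.42 on perichondral arrays, between the 2 hypertrophic values, and so was Dmp1 at 46 days only, with 7.80 and 10.22. Spp1, osteopontin, stayed between 8.47 and 9.47 on all 4 arrays. Vegfa, the angiogenic factor of hypertrophic cartilage, was 10.06 and 9.95, against 10.32 and 8.24, with overlap.

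Over all genes, list members included, large differences without overlap were less often lower than higher where the higher zone was above the other-organ level. Without a cut on that level, probe sets were near balance, with 1848 higher (5.95%) and 1738 lower (5.60%). Among genes with at least 1 log2 unit at each age and a higher zone above the other-organ level, 311 were higher (2.19% of genes) and 87 lower (0.612%). The lower ones named by size included Chst4, a sulfotransferase, at 8.60 and 9.51 on perichondral arrays, against 11.58 and 11.65 on hypertrophic arrays. Il7r, the interleukin-7 receptor, was 7.13 and 9.49, against 11.17 and 10.52, and its second probe set showed no difference. Lepr, the leptin receptor, was 4.58 and 8.09, against 10.09 and 9.31, and its other 6 probe sets gave -2.34 to 0.82. None of these passed in either fit, nor did Gemin7, Atg16l1, Prnd, Lin54 and Mgst1, with differences from -3.17 to -2.30.

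In the loop of Indian hedgehog and parathyroid hormone-related protein, which times hypertrophy, no member passed. Of 19 measured genes of this loop and of FGF and natriuretic peptide signalling, 7 were higher without overlap (18.3% of all genes) and 3 lower (17.6%). Their median was 0.50. Ihh itself was 5.18 and 5.99 on perichondral arrays, against 9.03 and 6.98 on hypertrophic arrays, all below the other-organ level. Boc, a hedgehog coreceptor, was 12.02 and 10.92, against 8.80 and 9.05, and Fgfr2, an FGF receptor of perichondrium and osteoprogenitors, was 10.06 and 10.24, against 7.89 and 8.43. The 5 probe sets of Fgfr2 disagreed, from -2.65 to 1.99. Fgfr3, which restrains chondrocyte division, was bright and close on all arrays, 12.73 and 12.39 against 12.96 and 13.39. The receptor Pth1r differed by -0.25.

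Of 10 measured secreted Wnt inhibitors, 5 were higher in perichondral than hypertrophic arrays without overlap (18.3% of all genes) and 2 lower (17.6%). Their median was 1.29, and no member was past the threshold in either fit. Wif1 was 9.01 and 8.61 on perichondral arrays, against 4.44 and 5.03 on hypertrophic arrays. Sfrp1 was 11.49 and 11.26, against 8.58 and 8.99, and Frzb was 13.65 and 13.00, against 11.55 and 10.37. In all 3 the zones did not overlap, although no Wif1 value reached the other-organ level. Among 29 Wnt ligands, receptors and targets, 8 were higher and 4 lower without overlap, to be read against the same shares, around a median of 0.17. The largest was Fzd8, a receptor, with a difference of 3.14, and the brightest was the transcription factor Tcf7, at 12.34 and 11.77, against 8.61 and 10.06.

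Of 28 genes of BMP signalling, 8 were higher (28.6%) and 6 lower (21.4%) without overlap, with a median of 0.09. Over all genes these shares were 18.3% and 17.6%, and the other counts in this paragraph can be read against them. Twsg1 and Id2 were past the threshold with age as a block, a fit that called 0.281% of all genes higher. Id2, a BMP target that inhibits helix-loop-helix factors, was 12.99 and 11.90 on perichondral arrays, against 9.39 and 7.84 on hypertrophic arrays (limma adjusted p = 0.233, and 0.00547 with age). A dim second probe set of Id2 gave -1.99. Smad5, a transducer of BMP signals, was 6.43 and 5.74, against 9.58 and 8.12, and did not pass, while its other probe sets gave -1.37, 0.14 and 2.78, so its direction is uncertain. In TGF-beta signalling 7 of 21 were higher and 3 lower, with a median of 0.74. Tgfb2, a ligand, was 12.43 and 12.50, against 10.16 and 10.50, and did not pass, and its second probe set gave -0.27. In the growth hormone and IGF system 6 of 25 were higher and 2 lower, with a median of -0.05, and H19 was the only call, with age as a block.

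**Figure D3:**
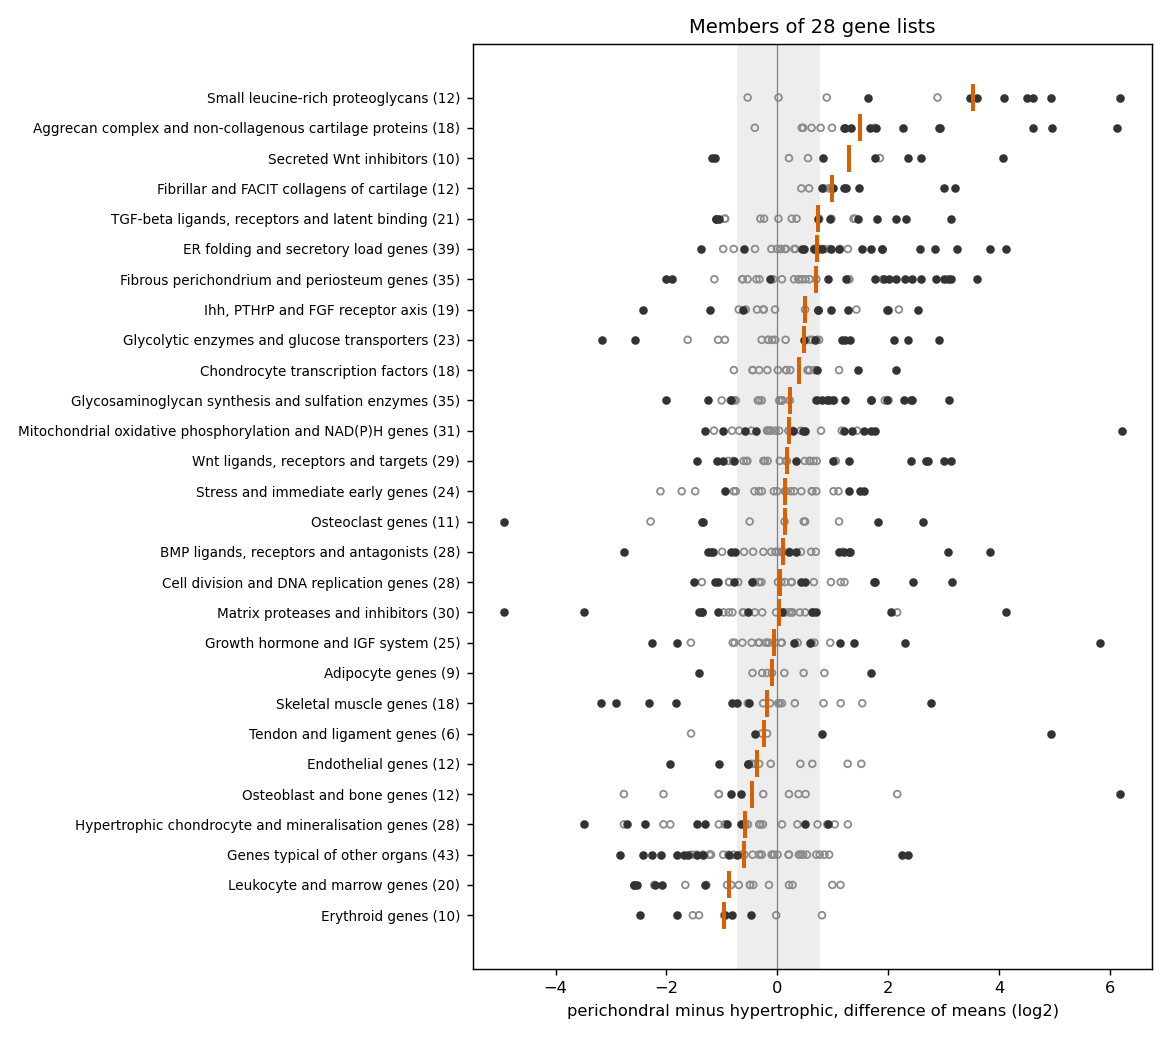
Perichondral minus hypertrophic difference of means (log2, horizontal axis) of each measured member of 28 gene lists, with the number measured in parentheses. Filled points are genes whose zones do not overlap, orange bars are list medians, and the grey band is the interquartile range of all named probe sets. Small leucine-rich proteoglycans have a median of 3.54 at the top, and erythroid genes one of -0.95 at the bottom.

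Genes of protein folding and export in the ER, on which matrix secretion depends, were often higher in perichondral than in hypertrophic arrays. The list's median signal was 9.63 and 9.02 on perichondral arrays, against 8.97 and 8.57 on hypertrophic arrays. It was 9.92 for the reserve and 9.44 for the proliferative zone means, so the level was not particular to the rim. Of 39 measured members, 17 were higher without overlap (18.3% of all genes) and 2 lower (17.6%). At an unadjusted limma p below 0.05, 8 were higher (4.53% of all genes) and none lower (2.32%). The median was 0.72, but no member passed in either fit. Serpinh1, the collagen chaperone, was 10.53 and 6.99 on perichondral arrays, against 4.52 and 4.76 on hypertrophic arrays, and its second probe set gave 1.27. P4hb, a disulfide isomerase and subunit of collagen prolyl hydroxylase, was 10.75 and 9.56, against 8.15 and 5.66 (limma adjusted p = 0.547, and 0.0505 with age). Plod2, a collagen lysyl hydroxylase, was 11.51 and 10.38, against 8.82 and 9.28. On both perichondral arrays 22 of 39 were above the 42-day hypertrophic array (34.2% of all genes were) and 30 of 39 above the 46-day one (36.9% of all genes). Secretory genes outside the list were past the threshold with age as a block, and they were picked after their values were seen. Uggt2, which checks glycoprotein folding, was 11.91 and 12.18, against 8.41 and 7.68. Tmed7, a cargo carrier between ER and Golgi, was 12.71 and 12.55, against 7.78 and 10.15.

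Enzymes of glycosaminoglycan synthesis, which build the sugar chains of aggrecan, were higher without overlap in 13 of 35 measured members and lower in 3. Their median was 0.23, and none was past the threshold. Over all genes 18.3% were higher and 17.6% lower without overlap, and the other counts in this paragraph can be read against these shares. Csgalnact1, which starts chondroitin chains, was 12.93 and 12.38 on perichondral arrays, against 11.03 and 9.73 on hypertrophic arrays, and its second probe set gave 0.18. Chsy1, which extends them, was 11.10 and 11.00, against 8.54 and 10.17. Matrix proteases and inhibitors were balanced, with 5 of 30 higher and 7 lower without overlap. Only Mmp13 and Mmp9 reached the threshold, both lower and with age as a block, where 0.0211% of all genes were lower. Glycolytic genes were higher in 8 of 23 and lower in 2, and genes of oxidative phosphorylation higher in 9 of 31 and lower in 4. In that last list Nnt alone passed, and the median was 0.20. Genes of cell division gave 6 of 28 higher and 5 lower around a median of 0.04, near the shares over all genes. Only 2 members had an unadjusted limma p below 0.05, the replication helicase subunits Mcm2 and Mcm5, both higher. Mcm2 was 8.51 and 8.41 against 5.09 and 5.52, and Mcm5 was 9.39 and 8.43 against 6.53 and 6.39. All these values were below the other-organ level, and neither gene passed.

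Erythroid and leukocyte genes were lower in perichondral arrays mainly against the 42-day hypertrophic array. Of 10 erythroid genes, all were below that array on both perichondral arrays, where 36.4% of all genes were. Against the 46-day array 5 were below (34.6% of all genes) and 3 above (36.9% of all genes). Of 20 leukocyte and marrow genes, 13 were below the 42-day array and 1 above, and 8 below and 5 above the 46-day one, to be read against the same shares. The list's median signal was 7.62 and 6.14 on perichondral arrays, against 9.66 and 6.97 on hypertrophic arrays. Hemgn was 8.85 and 9.49 on perichondral arrays, against 12.89 and 10.39, and Ptprc, the pan-leukocyte phosphatase CD45, was 8.30 and 6.88, against 10.56 and 8.79, though a second Ptprc probe set gave 1.40 with the opposite sign. No member of either list passed. Their part in the lower Mmp9, Mmp13 and mineralisation signals was not tested.

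Bone, osteoclast and vessel lists held few calls. Of 12 bone genes, 8 were below the 42-day hypertrophic array on both perichondral arrays (36.4% of all genes) and 2 below the 46-day one (34.6% of all genes), and Omd was the single member past the threshold. Of 11 osteoclast genes 2 were higher (18.3% of all genes) and 3 lower (17.6%) without overlap. Mmp9 was lower with age as a block, and Acp5 and Ctsk were below the other-organ level on all 4 arrays. By the same measure, 4 of 12 endothelial genes were lower and none higher. Skeletal muscle genes were lower in 7 of 18 and higher in 1, with Myh4 and Tnnc2 near the bottom of the scale on perichondral arrays. Most endothelial and muscle genes were dim: 2 endothelial genes had a hypertrophic mean above the other-organ level and none a perichondral one. Of the muscle genes 1 was above it in each zone. Of 43 genes typical of other organs, 2 were higher and 11 lower without overlap with a median of -0.59, beside which the medians of other dim lists can be read.

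**Figure D4:**
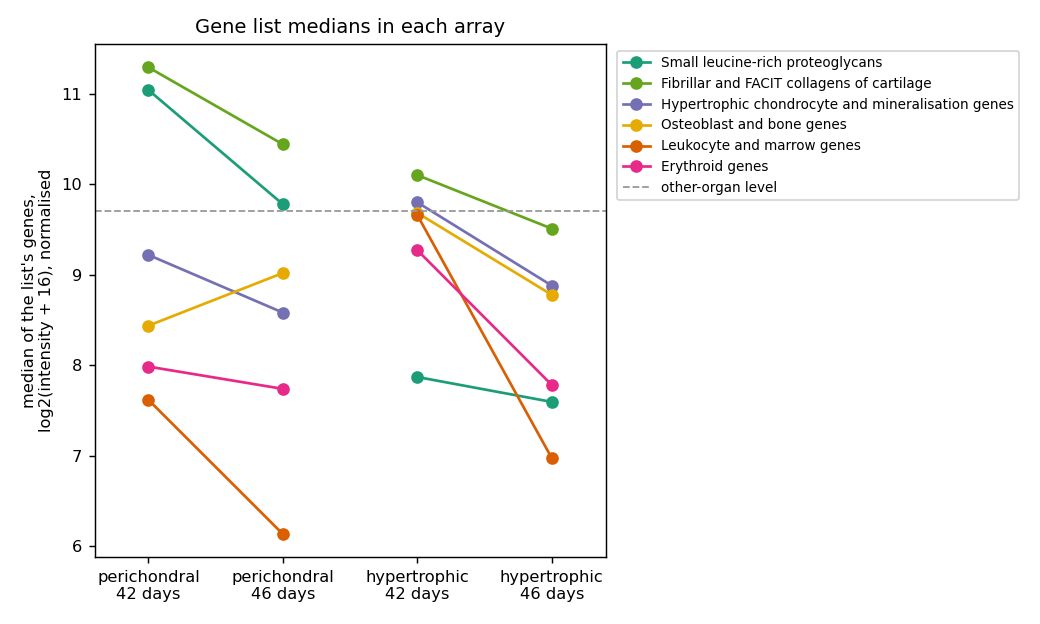
Median normalised signal (vertical axis, log2 of intensity + 16) of 6 gene lists on each of the 4 arrays, perichondral on the left and hypertrophic on the right, with lines joining the 2 ages of a zone. The small leucine-rich proteoglycans (teal) lie at 11.04 and 9.78 on the perichondral arrays, against 7.87 and 7.60 on the hypertrophic arrays. Leukocyte and erythroid medians are highest on the 42-day hypertrophic array, at 9.66 and 9.27, both below the other-organ level.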

How the data were processed

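Total RNA of 4 growth plate zones at 42 and 46 days of age was hybridised to Affymetrix rat arrays, 1 per zone and age. The authors' deposited table holds linear intensities of 31099 probe sets, with trimmed means of 500.08 to 500.16 on all arrays. MAS5, GCOS and RMA are named, without roles, per the submitters' processing notes, and no genome build is. Arrays give no read depth, and their number limits the precision.

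From these, 57 control probe sets were left out and the deposited intensities taken as log2(intensity + 16), then quantile normalized because array medians differed (7.92 to 8.51). This log2 scale understates the difference of dim genes. In R 4.3.3, limma 3.58.1 fitted 1 mean per zone to all 8 arrays, letting the variance follow the signal (residual degrees of freedom 4, prior 12.58), with Benjamini-Hochberg adjustment over 31042 probe sets. The fit was checked on simulated data. All zones share the ages per the labels, so age as a replicate block served as the paired fit. The change from 42 to 46 days correlated between the perichondral and hypertrophic zones at 0.0739 across all probe sets and 0.225 across the brightest.

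Names came from the platform annotation (20826 probe sets with 1 symbol, 436 with several, 9780 with none), and 14217 genes were represented by their brightest probe set. Named were all calls, up to 15 calls in each direction with age as a block, the 12 largest differences without overlap in each direction, up to 4 members of each of 28 lists with the smallest unadjusted p below 0.05, and 16 growth plate genes, of which 15 were measured. Other genes named were chosen after their values were seen. Members, lists and rule were chosen with earlier results of these data known, and no set test was run. Alternatives were left-out arrays, other scalings, pseudocounts of 1 and 64, a filter on dim probe sets, a fit with no variance trend and a fit to 4 arrays.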

Additional observations from a re-analysis of the deposited data

Results flagged for a closer look

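Some zone differences ran in opposite directions at the 2 ages. Each rests on 1 array per zone and age, so the difference between ages was not tested. Perichondral minus hypertrophic, Dmp1 was -5.78 at 42 days and 0.24 at 46 days, and Ibsp was -3.06 and 0.95. Spp1 was -1.0 at 42 days and 0.48 at 46 days, and Col1a1 was -0.68 and 1.70. The immediate early gene Fos was -4.48 at 42 days and 0.26 at 46 days. Vegfa was -0.26 and 1.71, and Pth1r was -0.93 and 0.42. Among list medians, bone genes were at -0.80 and 0.45, tendon and ligament genes at -0.12 and 0.22, osteoclast genes at 0.08 and -0.65, and cell division genes at -0.10 and 0.25.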

How the results depend on the processing

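Higher calls numbered 9 and lower calls 0. Centring each array on its median left 1 higher (Nnt), keeping probe sets above the median mean left 2 (Nnt and Ucma), and a fit with no variance trend left 0. The replicate block gave 52 higher and 3 lower (Mmp9, Mmp13 and Ccdc88c). Leaving out 1 array gave 0 to 50 higher and 0 to 1 lower. The causes were not tested. Values as deposited (7), pseudocounts of 1 (7) and 64 (8) and a fit to the 4 arrays alone (11, of which 6 shared with the 9) stayed within 1.5 times. Of the named genes' values under alternatives, 1322 kept direction and side of the threshold, 51 lost the call, 28 gained it and 8 changed sign. Only the 7 named genes called in the fit to all arrays could lose a call. Most of the 1322 are therefore values of uncalled genes that stayed uncalled, and they do not measure how stable the calls are. Over fits without 1 array the difference ran from -0.72 to 0.19 for Spp1, from -2.66 to 0.53 for Ibsp, from -1.88 to 2.87 for Col1a1, from -0.32 to 1.77 for Vegfa and from -0.65 to 0.13 for Pth1r, none of them past the threshold in the fit to all arrays. Over all lists and alternatives, 171 list medians stayed within the SD of that list's median differences at the 2 ages, and 81 moved beyond it. The median of the cell division list changed sign on the deposited scale, to -0.01, and that of matrix proteases to -0.02. Signal over background limits the comparison where neither zone exceeds the other-organ level.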
